A study of Arabidopsis thaliana with 9 samples.

Results

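Transcripts of *zmp-1* seedlings were compared with those of wild-type (WT) *Arabidopsis thaliana* in 6 of the 9 mRNA-seq libraries of the series, 3 of each genotype, taken by the genotype in their labels. WT is the Col-0 ecotype, and *zmp-1* (SALK_066029) is 1 line in that background with a T-DNA inserted in *ZMP* (AT5G63700). The remaining 3 libraries are from *zmp-2* (SALK_008955), a line with another T-DNA in the same gene, whose values are set beside those of *zmp-1* where they bear on a gene. All plants were grown at 23 °C in long days, and the labels give seedlings with an age of 12 days. A figure legend of the study also names seedlings for the RNA-seq of *ZMP*, whereas the methods name inflorescences. The counts cover 37336 genes, of which 18109 passed a filter on low counts and were tested.

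ZMP is a plant protein with zinc finger, MDM2/SWIB and Plus-3 domains that has been studied beside RNA polymerase IV, the enzyme that starts the small interfering RNAs guiding DNA methylation. Among the other genes described here, heat shock proteins are chaperones that keep proteins folded, and their genes are switched on by heat shock factors, which bind short repeats called heat shock elements. Camalexin is a sulphur-containing indole compound that *Arabidopsis* makes against microbes. Small nuclear RNAs (snRNAs) are parts of the spliceosome, and small nucleolar RNAs (snoRNAs) guide the modification of ribosomal RNA.

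The libraries held between 5815211 and 25182435 counts, with both extremes among the *zmp-1* libraries (replicates 2 and 1). Levels are given as TMM-scaled RPM, counts scaled to library size as RPM after edgeR's TMM scaling, and a level of 3 counts corresponds to 0.126 TMM-scaled RPM in the deepest library and 0.53 in the shallowest. WT replicate 3 was the WT library least like *zmp-1*: its Spearman correlation with the *zmp-1* libraries was 0.921 to 0.930, against 0.944 to 0.965 for the other WT libraries. Among the WT libraries it did not stand apart by this measure. It correlated with WT replicates 1 and 2 at 0.946 and 0.935, and these with each other at 0.942. Chloroplast genes gave 55.1% of its counts, against 62.0% to 65.5% in the other WT and the *zmp-1* libraries. The 32 nuclear photosynthesis genes used as leaf markers summed to 21208 to 29474 TMM-scaled RPM in *zmp-1* and 22111 to 27270 in WT. By contrast, 14 floral organ markers summed to 1.76 to 3.83 in *zmp-1* and 2.62 to 3.91 in WT, and 3 of them had no count in any library. In whole seedlings, fewer cells of a type and less RNA per cell cannot be told apart.

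*ZMP* (chromosome 5, 25493707 to 25497764, minus strand, TAIR10.1) was measured first, as the targeted gene. Its level was 2.14, 3.00 and 2.83 TMM-scaled RPM in *zmp-1* replicates 1, 2 and 3, against 5.53, 6.76 and 7.48 in WT. All *zmp-1* libraries were below all WT libraries, and the *zmp-2* libraries, at 1.502, 1.00 and 1.32, were lower still. The log2 fold change in *zmp-1* was −1.35 ± 0.26 (SE), or 2.55-fold lower, with an adjusted p of 0.155 (edgeR, quasi-likelihood test, Benjamini-Hochberg adjusted over all genes tested) and an unadjusted p of 0.000223. In the exact two-sided permutation test p was 0.1, the smallest value that 3 against 3 libraries allow.

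Few genes changed in *zmp-1* at an adjusted p of at most 0.05. There were 8 (0.0442% of the genes tested), of which 3 rose (0.0166%) and 5 fell (0.0276%), and 1659 genes had an unadjusted p under 0.05 (9.16%), 707 higher (3.9%) and 952 lower (5.26%). The shares of 3.9% and 5.26% are those to set beside the counts at that p for gene lists below. The genes that rose encode a cytochrome P450, a PLATZ transcription factor and an uncharacterized product. Those that fell encode a co-chaperone and a coactivator of the heat response, a xyloglucan-modifying enzyme, a lipid kinase-like protein and a long noncoding RNA. The log2 fold changes of all genes tested had a median of −0.01. The count of changed genes moved with single libraries: it was 53, 43 and 6 without WT replicate 1, 2 or 3, and 29, 2 and 0 without *zmp-1* replicate 1, 2 or 3. Without *zmp-1* replicate 3 none of the 8 genes passed (adjusted p 0.0766 to 0.195, edgeR; 1205 genes had an unadjusted p under 0.05), and without *zmp-1* replicate 2 only AT3G44970 of the 8 did. The labels do not say whether replicates are separate pools of plants, so that p-values measure the spread between these libraries, which may be technical. AT5G46710, AT2G20560, AT5G24240, *MBF1C* and *HSP101* each overlap a gene on the other strand, and their counts are uncertain because the library kit did not mark strand.

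Among the genes that changed, a pair lies close together on chromosome 3 of TAIR10.1 and moved in opposite directions. AT3G44970 (16432286 to 16435124, plus strand), of the cytochrome P450 superfamily of oxidizing enzymes, was at 16.9, 14.1 and 21.7 TMM-scaled RPM in *zmp-1* and at 3.43, 3.48 and 4.45 in WT, a log2 fold change of 2.22 ± 0.24 (SE; adjusted p 0.0115, edgeR). *XTH31* (AT3G44990, 16446935 to 16448844, minus strand), which encodes an enzyme that cuts and rejoins xyloglucan in the cell wall, was at 0.293, 0.53 and 0.567 in *zmp-1* and at 3.62, 5.45 and 6.26 in WT (log2 fold change −3.65 ± 0.40; adjusted p 0.0115). *XTH31* had only 7, 3 and 4 counts in *zmp-1* replicates 1, 2 and 3, against 38, 83 and 62 in WT, so that its fold change is imprecise. The groups did not overlap for either gene, as was the case for 6.77% (*zmp-1* above) and 5.79% (*zmp-1* below) of all genes tested. AT3G44980, which lies between them, had no count in any library. AT3G44960 and *scpl48* (AT3G45010), on either side, had log2 fold changes of −0.08 (95% interval −1.38 to 1.21) and −0.07 (−0.54 to 0.40).

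The same pair of genes behaved differently in *zmp-2*. *XTH31* was at 12.3, 22.1 and 16.2 TMM-scaled RPM there, above all WT libraries, and its difference between *zmp-2* and *zmp-1* was 5.36 on the log2 scale (adjusted p 0.000229, edgeR). AT3G44970 was at 4.98, 4.86 and 3.31, so that *zmp-2* overlapped WT, and *zmp-2* minus *zmp-1* was −2.005 (adjusted p 0.0116). Both genes therefore differed between the alleles at an adjusted p of at most 0.05, and 4 of all genes tested did so (0.0221%). At an unadjusted p under 0.05, 2.05% of all genes were higher and 2.3% lower in *zmp-2* than in *zmp-1*.

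AT5G46710, a gene of the PLATZ family of zinc-binding transcription factors, was at 27.7, 22.6 and 25.8 TMM-scaled RPM in *zmp-1* and at 7.72, 11.3 and 9.09 in WT, a log2 fold change of 1.44 ± 0.18 (SE; adjusted p 0.0242, edgeR). The *zmp-2* libraries lay between these groups, at 15.6 to 19.7. AT5G35935, which the reference lists among pseudogenes and transposable element genes on chromosome 5 (14083388 to 14089891), had 105 counts in *zmp-1* and 5 in WT, over the 3 libraries of each. Its ratio per counted read was 20.4 (95% exact interval for counting error alone 8.49 to 64.3; adjusted p 0.0242). This gene was nearly silent in WT and was kept by the filter through the mutants, where all 6 libraries had 1.79 to 3.18 TMM-scaled RPM.

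Of the genes that fell, AT5G24240, annotated as phosphatidylinositol 4-kinase gamma-like, had 3 counts in *zmp-1* and 133 in WT, a ratio of 0.0220 (0.00447 to 0.0656; adjusted p 0.0274, edgeR). In *zmp-2* it was likewise low, at 0.0683, 0.154 and 0.464 TMM-scaled RPM. The filter on low counts kept this gene through the WT libraries, the group where it was high. The long noncoding RNA AT3G06355 was at 33.6, 14.3 and 32.3 TMM-scaled RPM in *zmp-1* and at 172, 108 and 114 in WT (log2 fold change −2.28 ± 0.31; adjusted p 0.0274). It overlaps an annotated 5.8S ribosomal RNA gene (AT3G41979) on the same strand, so that its counts are uncertain. Its level in *zmp-2*, from 105 to 159, overlapped WT, and *zmp-2* minus *zmp-1* was 2.31 on the log2 scale (adjusted p 0.0476).

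**Figure D1:**
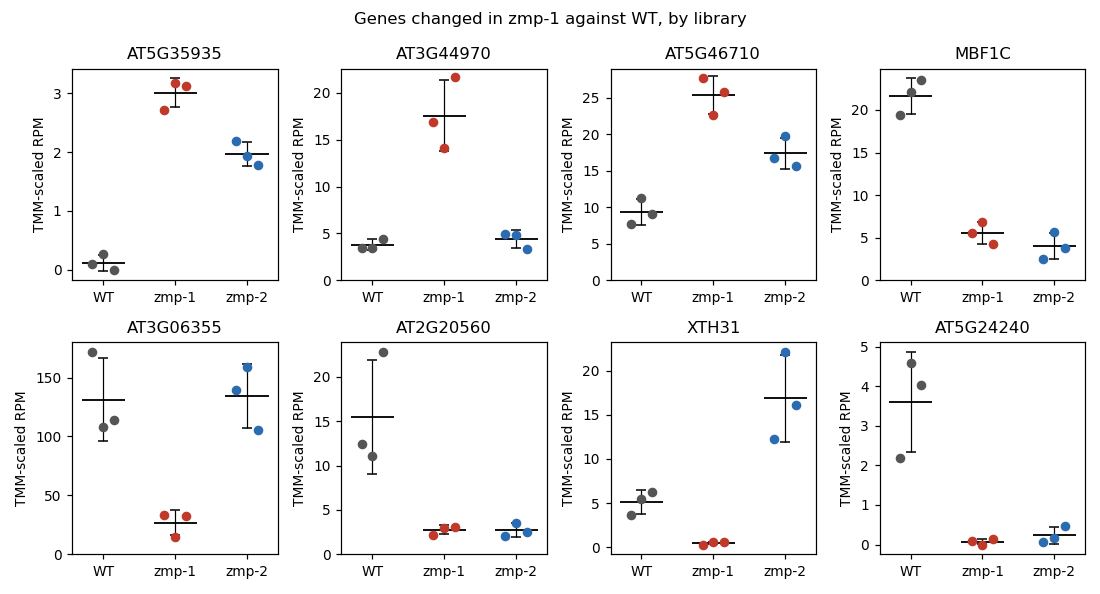
Each panel plots TMM-scaled RPM (y axis) of 1 of the 8 genes that changed in *zmp-1*, with 3 points for each genotype (x axis: WT, *zmp-1*, *zmp-2*); lines are means and bars are SD. The *zmp-1* points lie apart from the WT points in every panel, whereas *zmp-2* overlaps WT for AT3G44970 and AT3G06355 and lies above it for *XTH31*.

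Among the gene lists described here, heat chaperones had the lowest median log2 fold change in *zmp-1*. AT2G20560, a DNAJ-type heat shock protein, which hands unfolded proteins to HSP70 chaperones, fell: it was at 2.18, 3.00 and 3.12 TMM-scaled RPM in *zmp-1* against 12.4, 11.1 and 22.8 in WT (log2 fold change −2.52 ± 0.33, SE; adjusted p 0.0267, edgeR). *MBF1C*, a transcriptional coactivator needed for heat tolerance, fell from 19.4, 22.1 and 23.5 in WT to 5.57, 6.89 and 4.25 (log2 fold change −1.97 ± 0.27; adjusted p 0.0274). For both genes the *zmp-1* libraries were close together and well below every WT library. In *zmp-2*, AT2G20560 was at 2.05 to 3.55 and *MBF1C* at 2.53 to 5.63.

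Of 12 tested members of a list of heat chaperones, all had lower values in *zmp-1*, with a median log2 fold change of −1.73, and 10 had an unadjusted p under 0.05 (5.26% of all genes were lower at that p). None of the 12 passed the adjusted threshold. In *zmp-2*, compared with the same WT libraries, the list's median was −1.68, with 9 lower and 0 higher at that p. Of all genes, 12.1% were past that p in *zmp-2* in either direction. The disaggregase gene *HSP101* was at 7.20, 8.84 and 7.23 TMM-scaled RPM in *zmp-1* and at 30.03, 22.7 and 86.8 in WT (log2 fold change −2.59 ± 0.44; adjusted p 0.0778, edgeR). *HSP90.1*, the heat-inducible cytosolic HSP90, was at 8.08, 12.4 and 9.21 against 45.004, 40.7 and 198 (−3.28 ± 0.56; adjusted p 0.0815), and *HSP70* at 16.2, 22.4 and 18.1 against 77.7, 58.3 and 232 (−2.71 ± 0.50; adjusted p 0.128). WT replicate 3 was the highest library for each of these genes, yet WT replicates 1 and 2 also lay above every *zmp-1* library.

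How much of this difference rests on WT replicate 3 varied from gene to gene. Without it the median of the 12 heat chaperones was −0.51 and 7 were lower at an unadjusted p under 0.05. *HSP101* then had a log2 fold change of −1.78 (adjusted p 0.0222, edgeR), *HSP90.1* of −2.15 (0.0222) and *HSP70* of −1.86 (0.164). In contrast, *HSP70B* went from −3.55 to −0.27, *CLPB4*, for an organellar disaggregase, from −1.84 to −0.27, and *HSP18.2*, for a small heat shock protein, from −2.66 to 0.34. *HSP70B*, for example, was at 60.1 TMM-scaled RPM in WT replicate 3 but at 2.96 and 1.57 in the other WT libraries, within reach of the 1.55 to 2.65 of *zmp-1*. *CLPB4* and *HSP18.2* were chosen after their values were seen.

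Among 10 regulators of the heat response, 4 were lower and 2 higher at an unadjusted p under 0.05, and the median log2 fold change was −0.44 (−0.29 without WT replicate 2 and −0.27 without *zmp-1* replicate 3). *HSFA2*, a heat shock factor that is itself induced by heat, was at 0.921, 2.298 and 0.709 TMM-scaled RPM in *zmp-1* and at 8.77, 3.94 and 6.16 in WT (−2.38 ± 0.58; adjusted p 0.306, edgeR). *HSFB1*, a heat shock factor without an activation domain, was at 12.7, 15.4 and 9.21 in *zmp-1*, overlapping the 10.7, 46.3 and 30.8 of WT (adjusted p 0.429). *HSFA1B*, one of the master heat shock factors, was slightly higher in *zmp-1* (log2 fold change 0.56 ± 0.17; adjusted p 0.365). Outside these lists, *SR45a*, which encodes a splicing regulator of the SR-like family, was at 8.502, 11.5 and 9.64 against 31.7, 17.84 and 26.6 (−1.37 ± 0.22; adjusted p 0.0778).

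The promoters of 3 of these genes are printed because they hold a full heat shock element in the 300 bases searched, from 250 before to the first 50 of the annotated gene start in TAIR10.1. The capitals mark the element searched on both strands, which is GAA, any 2 bases, TTC, any 2 bases and GAA, or its reverse complement. *HSFA2* lies on the plus strand (chr2:11135374-11135673), and *HSP70* (chr3:3993837-3994136) and *SR45a* (chr1:2260138-2260437) on the minus strand.
HSFA2: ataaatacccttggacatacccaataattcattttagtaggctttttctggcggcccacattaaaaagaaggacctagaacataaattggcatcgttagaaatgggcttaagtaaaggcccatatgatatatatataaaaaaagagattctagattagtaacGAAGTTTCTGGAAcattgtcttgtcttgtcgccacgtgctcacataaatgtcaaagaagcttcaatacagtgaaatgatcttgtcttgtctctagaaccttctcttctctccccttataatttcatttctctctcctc
HSP70: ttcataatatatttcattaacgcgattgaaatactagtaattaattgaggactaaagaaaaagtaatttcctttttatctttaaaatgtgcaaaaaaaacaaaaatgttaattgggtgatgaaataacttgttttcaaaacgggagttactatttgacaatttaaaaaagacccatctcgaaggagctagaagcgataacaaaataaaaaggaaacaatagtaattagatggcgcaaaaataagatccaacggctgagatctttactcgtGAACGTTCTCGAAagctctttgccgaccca
SR45a: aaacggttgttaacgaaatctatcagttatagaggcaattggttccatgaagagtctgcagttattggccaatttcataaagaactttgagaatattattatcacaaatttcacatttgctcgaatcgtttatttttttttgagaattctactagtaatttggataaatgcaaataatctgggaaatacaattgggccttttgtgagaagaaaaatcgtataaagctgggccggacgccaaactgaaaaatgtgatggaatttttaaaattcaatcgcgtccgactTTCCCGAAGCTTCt

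The element begins 88 bases before the annotated start of *HSFA2*, and 20 and 36 bases after those of *HSP70* and *SR45a*. It was present in the same window of 93 of 17492 tested protein-coding genes (0.532%). Of the 884 protein-coding genes lower in *zmp-1* at an unadjusted p under 0.05, 15 held it (1.70%), and of the 680 higher ones 3 (0.441%). Among the heat genes it was found in 1 of 12 chaperone and 3 of 10 regulator promoters. The regulators were *HSFA2*, *DREB2A* and *HSFA7A*, of which the last 2 are not printed. Their median log2 fold change was −0.69, against −0.16 for the regulators without the element. A match is a run of letters and not a measured binding site.

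Chaperones of the endoplasmic reticulum (ER), which fold secreted proteins, were lower by a smaller amount. All 12 tested members had lower values in *zmp-1*, with a median log2 fold change of −0.51. Of these, 7 had an unadjusted p under 0.05, against 5.26% of all genes lower at that p. *BIP2*, for the HSP70 of the ER lumen, was at 45.2, 61.3 and 58.5 TMM-scaled RPM in *zmp-1* and at 74.8, 90.3 and 122 in WT (log2 fold change −0.80 ± 0.23; adjusted p 0.344, edgeR). Its close relative *BIP1* was at 65.0, 74.1 and 87.0 against 101, 119 and 143. The groups did not overlap for either gene. Without WT replicate 3 the list's median was −0.40, with 4 genes lower at an unadjusted p under 0.05. The ER stress element is CCAAT followed by any 10 bases and CACG, on either strand. It was in 6 of the 12 promoters and in 1.13% of the promoters of all tested protein-coding genes. Those 6 genes had a median log2 fold change of −0.37, a smaller difference than the −0.62 of the genes without the element. The 34 tested proteasome genes, whose products degrade damaged proteins, were also lower in value in 31 cases (median −0.26), 5 of them at an unadjusted p under 0.05 and 0 of them without WT replicate 3.

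Genes of chemical defence and detoxification had lower values in *zmp-1* than in some of the WT libraries. Of 15 tested genes of camalexin and indole compound synthesis, 8 were lower and none higher at an unadjusted p under 0.05. The shares over all genes were 5.26% and 3.9%. The list had a median log2 fold change of −0.68 and no gene past the adjusted threshold. *PAD3*, for the last enzyme of camalexin synthesis, was at 0.503, 0.53 and 0.425 TMM-scaled RPM in *zmp-1* and at 2.67, 5.97 and 45.9 in WT (−5.17 ± 1.17; adjusted p 0.269, edgeR). *CYP71A13*, which acts earlier in the same pathway, was at 0.377, 0.177 and 0.425 against 0.953, 5.90 and 5.96 (−3.59 ± 0.99; adjusted p 0.338). Replicates 2 and 3 of *zmp-1* had at most 3 counts for either gene, and the WT libraries were spread widely. Without WT replicate 3, *PAD3* was at −3.14 and the list's median at −0.43, with 5 genes lower at an unadjusted p under 0.05. Over the whole list WT replicate 1 was as low as *zmp-1*: its median difference from the WT mean was −0.70 on the log2 scale, against −0.70, −0.72 and −0.69 in *zmp-1*, and its summed level was 268 TMM-scaled RPM, against 312 to 338. WT replicates 2 and 3 summed to 1005 and 774. In *zmp-2*, compared with the same WT libraries, the list's median was −0.68, with 6 lower and 0 higher at an unadjusted p under 0.05. Of all genes, 12.1% were past that p there in either direction.

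Glutathione S-transferases, which attach glutathione to reactive compounds, had a median log2 fold change of −0.80 over 28 tested genes. At an unadjusted p under 0.05, 11 were lower and none higher, against 5.26% and 3.9% of all genes. The family's median was −0.37 without WT replicate 3, with 7 lower at that p. In *zmp-2*, compared with the same WT libraries, it was −0.54, with 11 lower and 1 higher, against 12.1% of all genes in either direction. Of 10 genes of redox defence, 5 were lower at that p (median −0.60), but this list depended on WT replicate 3, without which 2 remained and the median was −0.04. *GSTU25* was at 0.67, 1.59 and 1.56 TMM-scaled RPM in *zmp-1* and at 1.05, 6.17 and 42.4 in WT. *AOX1A*, the stress-induced alternative oxidase of mitochondria, was at 174 in WT replicate 3 but at 22.9 and 20.4 in the other WT libraries, next to 19.3 to 23.8 in *zmp-1*. *APX1*, the cytosolic ascorbate peroxidase that removes hydrogen peroxide, was at 90.09, 115 and 127 in *zmp-1*, below the 173, 152 and 248 of every WT library (−0.79 ± 0.23; adjusted p 0.344, edgeR).

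Class III peroxidases and related genes matched by their annotation showed the same direction, with 46 of 56 tested genes lower in value (median −0.24). Of these, 13 were lower at an unadjusted p under 0.05, against 5.26% of all genes. Without WT replicate 3 the median was −0.44, with 12 lower at that p. Measured from the mean of WT, the median peroxidase gene was at −0.41, 0.50 and −0.10 on the log2 scale in WT replicates 1, 2 and 3, and at −0.13, −0.10 and −0.28 in *zmp-1*, so that WT replicate 2 was the highest library and WT replicate 1 lay below every *zmp-1* library. Of the 3 tested senescence markers 2 were lower at that p. *SAG13* was at 0.461, 0.177 and 1.28 TMM-scaled RPM against 1.14, 4.53 and 23.1 in WT, so that the groups overlapped (−3.95 ± 0.99; adjusted p 0.318, edgeR). Of 16 genes of salicylate defence, 2 were lower and 1 higher at an unadjusted p under 0.05. The higher one was *WRKY70*, a transcription factor that favours salicylate over jasmonate signalling, at 39.0, 23.5 and 39.5 against 6.77, 18.9 and 14.9 (1.33 ± 0.33; adjusted p 0.318).

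**Figure D2:**
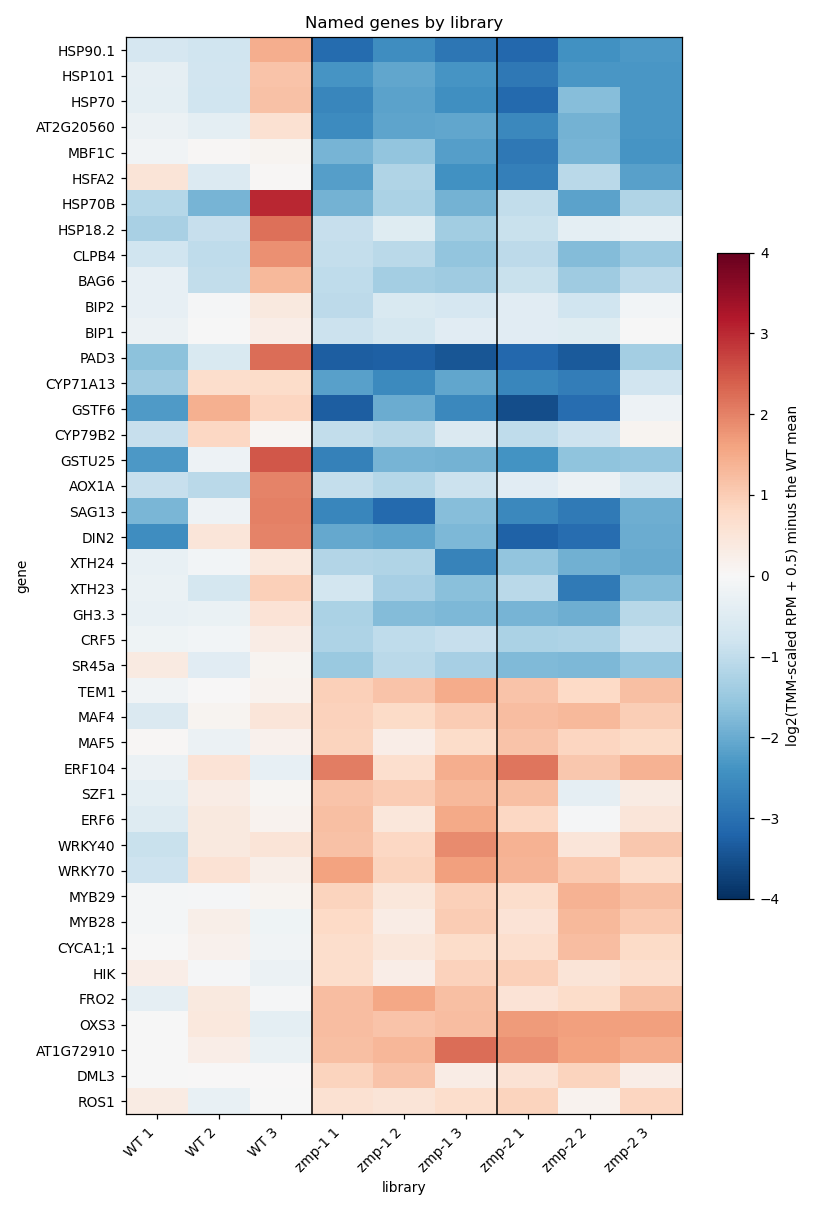
Named genes (rows) by library (columns, 3 each of WT, *zmp-1* and *zmp-2*, divided by black lines), coloured by log2(TMM-scaled RPM + 0.5) minus the mean of the WT libraries. Heat and defence genes in the upper rows are blue in all *zmp-1* libraries and red mainly in WT replicate 3, and the lower rows are genes that were higher in *zmp-1*.

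Several transcription factors and regulators were higher in *zmp-1*, with smaller changes and more even replicates. *TEM1*, a repressor of flowering, was at 71.0, 81.8 and 103 TMM-scaled RPM in *zmp-1* and at 32.8, 37.1 and 39.9 in WT (log2 fold change 1.22 ± 0.19; adjusted p 0.0655, edgeR). Of 15 tested flowering time genes, 12 had higher values (median 0.29, and 0.18 without *zmp-1* replicate 3) and 3 were higher at an unadjusted p under 0.05, against 3.9% of all genes. The other two were *MAF5* and *MAF4*, related and neighbouring repressors of flowering, *MAF5* at 4.61, 2.83 and 4.11 against 2.38, 1.84 and 2.63 and *MAF4* at 2.26, 1.94 and 2.41 against 0.477, 1.05 and 1.52. The groups did not overlap for any of the 3 genes.

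Of 20 tested genes that respond to stress within minutes, 7 were higher and 2 lower at an unadjusted p under 0.05. The shares over all genes were 3.9% and 5.26%. The list's median was 0.46, and none of its genes passed the adjusted threshold. WT replicate 1 was the lowest library, with a median difference from the WT mean of −0.59 on the log2 scale against 0.34 and 0.30 in WT replicates 2 and 3, and *zmp-1*, at 0.48, 0.26 and 0.68, overlapped the latter. Without WT replicate 1 the list's median was 0.17, and without WT replicate 3 it was 0.60, with 9 genes higher and 0 lower at that p. *ERF104*, an ethylene response factor, was at 112, 42.8 and 74.5 TMM-scaled RPM in *zmp-1* and at 22.9, 39.6 and 21.3 in WT (1.46 ± 0.38; adjusted p 0.322, edgeR). *SZF1*, for a zinc finger protein of the salt response, was at 144, 130 and 161 against 49.5, 79.7 and 67.9, and *WRKY40*, for a repressor of immune genes, at 34.6, 27.0 and 56.8 against 7.82, 19.8 and 21.4. In *zmp-2* the same list had a median of −0.25, with 3 genes higher and 4 lower at that p. Between the alleles, 4 of the 20 were lower in *zmp-2* than in *zmp-1* at an unadjusted p under 0.05, against 2.3% of all genes, and none passed the adjusted threshold.

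All 22 tested cell division genes had higher values in *zmp-1*, against 48.9% of all genes tested, although the median log2 fold change was 0.30 (0.17 without *zmp-1* replicate 3) and 3 were past an unadjusted p of 0.05. With WT replicate 3 left out, 21 of the 22 had higher values and 2 were past that p. In *zmp-2*, compared with the same WT libraries, the median was 0.50, with 10 higher and 0 lower at that p. Of all genes, 12.1% were past it there in either direction. *CYCA1;1*, for a cyclin of dividing cells, was at 8.13, 6.72 and 8.22 TMM-scaled RPM and at 4.67, 5.38 and 4.24 in WT (0.69 ± 0.21; adjusted p 0.367, edgeR). *HIK*, for a kinesin that builds the new cell wall at division, was at 15.2, 11.1 and 18.0 against 11.3, 8.86 and 7.78. Their differences were below 2-fold, and for *HIK* the groups overlapped.

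Regulators of aliphatic glucosinolates, the sulphur-rich defence compounds of the cabbage family, were higher in value. *MYB29* was at 11.4, 8.31 and 12.0 TMM-scaled RPM against 5.63, 5.71 and 6.47 in WT (0.85 ± 0.22; adjusted p 0.330, edgeR), and *MYB28* at 22.7, 16.1 and 26.4 against 12.3, 15.2 and 11.5 (0.74 ± 0.23; adjusted p 0.371). Over the 19 tested genes of the pathway the median was 0.21, with 2 higher and 1 lower at an unadjusted p under 0.05. Without WT replicate 3, 5 were higher at that p, and the median was 0.11 without WT replicate 2 and 0.10 without *zmp-1* replicate 3. Genes annotated as MYB factors were higher at that p in 9 of 56 cases and lower in none, against 3.9% and 5.26% of all genes. *FRO2*, the root iron reductase, was at 2.18, 2.83 and 2.13 against 0.381, 0.984 and 0.606 (1.77 ± 0.42; adjusted p 0.293), while 1 other of the 15 iron genes was lower at an unadjusted p under 0.05 and the median was −0.15, which turned to 0.61 without WT replicate 2.

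Among genes annotated as TIR or NBS-LRR disease resistance genes more were higher than lower at an unadjusted p under 0.05, although the median differed little from 0. Receptor-like kinase genes went the other way. Of 155 tested, 3 were higher (1.94%) and 11 lower (7.10%) at that p, against 3.9% and 5.26% of all genes. AT1G72910, of the TIR domain family, was at 18.8, 20.7 and 38.7 TMM-scaled RPM in *zmp-1* and at 7.82, 9.58 and 6.47 in WT (1.69 ± 0.27; adjusted p 0.0778, edgeR). *CW9*, a gene of the CC-NBS-LRR class, was at 16.5, 18.4 and 19.4 against 8.49, 10.4 and 8.69 (0.97 ± 0.16; adjusted p 0.0778). Of the 95 tested genes annotated as TIR or NBS-LRR disease resistance genes, 12 were higher and 2 lower at an unadjusted p under 0.05, with a median of 0.10, and without WT replicate 3 there were 10 and 5, with a median of 0.02. *OXS3*, which encodes a chromatin-associated factor of stress tolerance, was at 40.5, 37.6 and 40.7 against 16.5, 22.8 and 12.6 (1.19 ± 0.20; adjusted p 0.0778). AT1G64795 had 194 counts in *zmp-1* and 3 in WT, a ratio of 63.0 (21.2 to 308, exact interval for counting error alone). This gene did not pass the adjusted threshold, and the filter kept it through the mutant libraries. Its log2 fold change lay between 4.24 and 6.36 when 1 library was left out. It lies wholly within AT1G64790 on the opposite strand, and the 2 genes cannot be told apart because the library kit did not mark strand.

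Some cell wall and hormone genes were higher and others lower at an unadjusted p under 0.05, against 3.9% and 5.26% of all genes. Of 16 auxin genes 2 were higher and 3 lower at that p, of 8 cytokinin genes 1 was lower, and of 11 gibberellin genes 1 was higher and 2 were lower. With so few genes in the hormone lists, these counts are not read as a shift. Of 23 cell wall loosening genes, 5 were lower and 1 higher at an unadjusted p under 0.05 (median −0.18). *XTH24*, a relative of *XTH31*, was at 24.96, 24.4 and 8.36 TMM-scaled RPM in *zmp-1* and at 45.4, 51.8 and 76.1 in WT (−1.57 ± 0.34; adjusted p 0.252, edgeR), while *TCH4*, another xyloglucan enzyme that responds to touch, was at 424, 314 and 226 against 155, 195 and 148 (0.95 ± 0.38; adjusted p 0.468). *GH3.3*, for an enzyme that conjugates auxin, was at 2.89, 1.94 and 1.84 against 6.20, 6.30 and 11.5 (−1.77 ± 0.36; adjusted p 0.204), and *CRF5*, a cytokinin response factor, at 2.64, 3.18 and 3.40 against 6.10, 6.30 and 8.49 (−1.20 ± 0.24; adjusted p 0.204). The corresponding values of *GH3.3* and *CRF5* for *zmp-2* against WT were −1.82 and −1.24 (log2 fold change).

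The genes nearest to the known pathway of ZMP moved little. None of 17 tested genes of RNA-directed DNA methylation had an unadjusted p under 0.05, and their log2 fold changes lay between −0.42 and 0.33 (median 0.14). Of 13 other DNA methylation genes, 2 were higher at that p, both DNA demethylases: *DML3* at 2.64, 3.18 and 1.56 TMM-scaled RPM against 1.14, 1.18 and 1.21, and *ROS1* at 33.3, 31.3 and 35.6 against 27.5, 17.39 and 21.2. The groups did not overlap, but neither gene passed the adjusted threshold (0.404 and 0.449, edgeR). None of the 32 nuclear photosynthesis, 10 carbon fixation or 11 chlorophyll synthesis genes had an unadjusted p under 0.05 either. All 11 chlorophyll synthesis genes had higher values (median 0.14), 9 of them without WT replicate 3. Higher values were also found for 21 of the photosynthesis genes (median 0.06) and 4 of the carbon fixation genes (median −0.04).

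**Figure D3:**
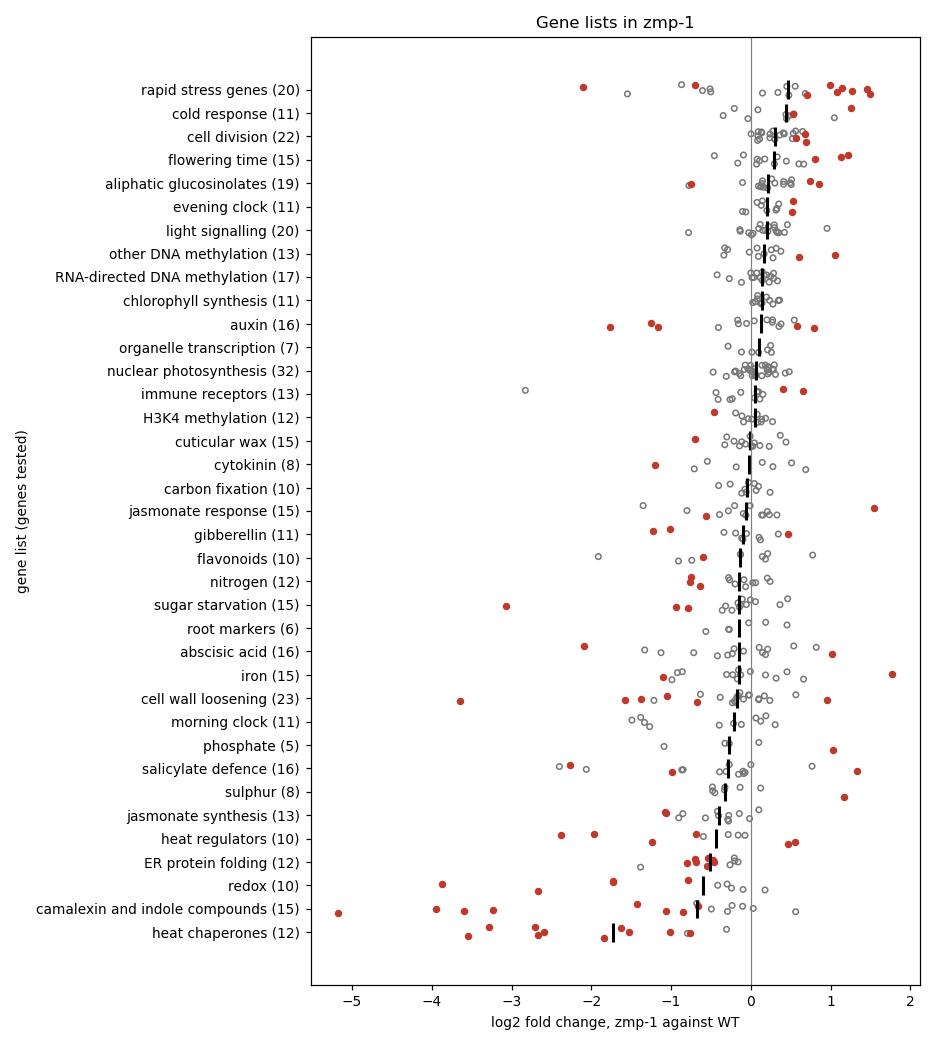
Log2 fold change of *zmp-1* against WT (x axis) of each tested gene in the lists with at least 5 tested genes (y axis, number tested in brackets); filled red points have an unadjusted p under 0.05, open points do not, and black bars are medians. The heat chaperone list has the lowest median (−1.73) and the list of rapid stress genes the highest (0.46).

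Chloroplast-encoded genes were higher in value in 92 of 99 cases, with a median of 0.37 and 10 at an unadjusted p under 0.05. The share of counts from the chloroplast was 62.5% to 65.5% in *zmp-1* and 55.1% to 62.1% in WT. Without WT replicate 3 the median was 0.23 and 2 genes were past that p, and without WT replicate 2 the median was 0.58.

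Small RNA genes of the nucleus had the lowest median log2 fold changes of the gene classes. Of 20 tested snRNA genes 19 had lower values in *zmp-1*, with a median log2 fold change of −1.94 and 12 at an unadjusted p under 0.05. Of 83 snoRNA genes 69 were lower (median −1.38), 36 at that p and 22 without WT replicate 3. Restricted to snoRNA genes that had 10 counts or more in each library, the median was −0.04, and without *zmp-1* replicate 1 the snRNA and snoRNA medians were −3.97 and −2.29. No gene of either class was higher at that p, and none passed the adjusted threshold. In *zmp-2* the medians were 0.17 and 0.13, with 0 genes past an unadjusted p of 0.05 in either direction, and between the alleles 56 of the 103 genes were higher in *zmp-2* than in *zmp-1* at that p, against 2.05% of all genes, while none passed the adjusted threshold.

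Examples of a U1 snRNA, which recognizes the start of introns, of the U12 snRNA of the minor spliceosome, and of a snoRNA are printed in their TAIR10.1 sequence, since the class had to be read from short genes. Capitals mark the bases of U1 that pair with the intron start, those of U12 that pair with the branch site, and the C and D boxes (TGATGA near the beginning, CTGA near the end) of the snoRNA. U1.4 is at chr5:8972808-8972971 (minus strand), U12 at chr1:22603121-22603295 (plus strand), and the snoRNA AT5G07725 at chr5:20795723-20795828 (plus strand).
U1.4: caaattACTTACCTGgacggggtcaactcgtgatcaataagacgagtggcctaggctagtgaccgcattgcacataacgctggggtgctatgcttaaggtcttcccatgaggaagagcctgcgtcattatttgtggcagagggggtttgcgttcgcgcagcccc
U12: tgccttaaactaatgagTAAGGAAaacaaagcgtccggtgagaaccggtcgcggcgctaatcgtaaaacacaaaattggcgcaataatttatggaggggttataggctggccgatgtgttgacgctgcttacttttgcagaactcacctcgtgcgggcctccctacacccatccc
AT5G07725: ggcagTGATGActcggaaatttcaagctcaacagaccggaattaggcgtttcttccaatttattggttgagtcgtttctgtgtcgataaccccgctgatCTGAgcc

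The 3 *zmp-1* libraries were not alike for these genes. U1.4 was at 77.7 TMM-scaled RPM in *zmp-1* replicate 1 but at 0.177 and 0.142 in replicates 2 and 3, against 244, 62.1 and 275 in WT. *zmp-1* replicate 1 was thus within the range of WT, and the other 2 were near 0. U12 was more even, at 1.88, 1.59 and 1.42 in *zmp-1* against 8.30, 7.54 and 10.104 in WT, and the groups did not overlap (log2 fold change −2.35 ± 0.53; adjusted p 0.269, edgeR). AT5G07725 was at 11.1, 2.65 and 1.28 against 27.7, 10.96 and 51.7, so that *zmp-1* replicate 1 met WT replicate 2. These 3 genes were chosen after their values were seen.

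Summed over the 20 snRNA genes, the level was 1135, 147 and 70.7 TMM-scaled RPM in *zmp-1* replicates 1, 2 and 3, and 2435, 870 and 2338 in WT. Replicates 2 and 3 of *zmp-1* were also the libraries with the fewest counts, 5815211 and 7149691. Length went with the size of the difference: the 31 snoRNA genes of up to 100 bases had a median of −0.63, with 6 lower at an unadjusted p under 0.05, and the 52 longer ones a median of −1.71, with 30. The 26 snoRNA genes with both a C and a D box, which were 74 to 290 bases long, had a median of −0.88. Genes overlapping another gene (31, median −1.90) and those overlapping none (72, median −1.42) were both low. The methods call these mRNA-seq libraries made from total RNA and name no selection of polyadenylated RNA. Whether depth or gene length had a part in this result was not tested.

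**Figure D4:**
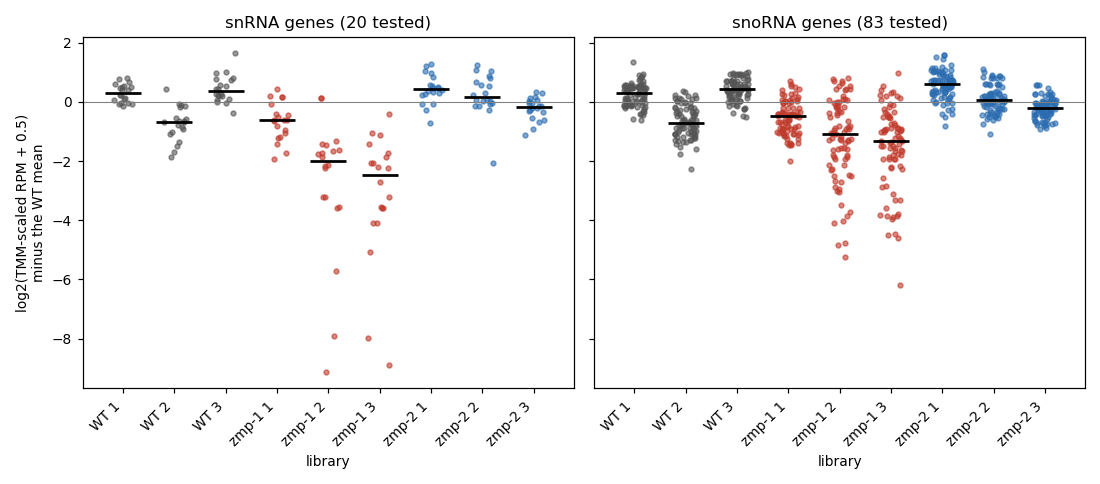
Points are the tested snRNA (left) and snoRNA genes (right), with log2(TMM-scaled RPM + 0.5) minus the mean of the WT libraries on the y axis and the 9 libraries on the x axis; black bars are medians. *zmp-1* replicates 2 and 3 lie lowest, *zmp-1* replicate 1 lies near WT replicate 2, and the *zmp-2* libraries lie around WT.

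Markers of seed storage, were at low and variable levels. The 5 genes summed to 15.2 to 40.4 TMM-scaled RPM in *zmp-1* and to 1.97 to 29.5 in WT, and 2 of 4 tested genes were higher at an unadjusted p under 0.05. The 10 root markers summed to 17.3 to 21.9 in *zmp-1* and 18.8 to 22.4 in WT, with none of 6 tested genes past that p. Of 11 morning genes of the circadian clock 7 were lower in value, *CCA1* at 1.801, 1.94 and 4.53 against 1.81, 5.38 and 13.03 in WT, with none past that p. The median of the morning genes turned from −0.22 to 0.12 without WT replicate 3. Of the evening genes, 2 of 11 were higher at that p, *ELF4* and *PRR5*, against 3.9% of all genes. The hour of collection is not given in the labels.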

How the data were processed

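RNA of seedlings was sequenced by the authors as mRNA-seq after a NEBNext Ultra library preparation. Per the labels and the methods, reads were trimmed with Trim Galore, aligned to TAIR10 with STAR 2.5.3a and counted per Araport11 gene, and the raw count per gene was deposited for each library. Each file holds 1 column of counts, and which strand setting the authors kept is not given in the sources used here. Gene names, coordinates and sequences came from RefSeq's TAIR10.1.

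Genes were filtered with filterByExpr and tested with edgeR 4.0.16 (TMM, quasi-likelihood test, 1 coefficient per genotype) in R 4.3.3 on all 9 libraries, so that *zmp-2* added to the estimate of the spread, and p-values were adjusted by the Benjamini-Hochberg method over all 18109 genes tested. A gene was called at an adjusted p of at most 0.05. Lists were described by counts and medians, without a test. The fit was tested on simulated data. Named genes were *ZMP*, all called genes, the 10 in each direction with the smallest p, and up to 4 members of each list with the smallest p. Members and lists were chosen with earlier results of these data known. Intervals of count ratios cover counting error only. DESeq2 1.42.0, other normalizations and filters, a replicate block, a fit of 6 libraries and fits without each library were tried as alternatives.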

Additional observations from a re-analysis of the deposited data

Results flagged for a closer look

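For 3 of the genes that changed in *zmp-1*, the alleles themselves differed in the test of *zmp-2* minus *zmp-1* (edgeR, adjusted over all genes tested). For *XTH31* the difference was 5.36 on the log2 scale (adjusted p 0.000229), with every *zmp-2* library above and every *zmp-1* library below the WT libraries. For AT3G44970 it was −2.005 (adjusted p 0.0116) and for AT3G06355 2.31 (adjusted p 0.0476), and in both cases *zmp-2* overlapped WT. In all, 4 genes (0.0221%) passed this test between the alleles.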

How the results depend on the processing

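The count of changed genes, 8 in the fit reported, was 110 with DESeq2 (47 higher, 63 lower), 51 without a filter on low counts (24 and 27), 5 with at least 10 counts in every library (3 lower), 5 with only the 6 WT and *zmp-1* libraries (1 higher), and 0 at an adjusted p of at most 0.01, where 1659 genes had an unadjusted p under 0.05. Leaving out 1 library gave 0 to 53 genes, 0 to 22 higher and 0 to 50 lower. The cause of these differences was not tested. Replicate numbers did not pair the libraries (same-numbered deviations correlated at 0.049, 0.0093 and 0.049), and a replicate block gave 12 genes with 9 libraries (5 higher) and 11 with 6 (1 higher, 10 lower). The log2 fold change of *ZMP* lay between −1.47 and −1.17. Leaving out 1 library in turn moved the heat chaperone median between −2.14 (without WT replicate 2) and −0.51 (without WT replicate 3), the cell division median between 0.17 (without *zmp-1* replicate 3) and 0.43 (without *zmp-1* replicate 1), and the snRNA and snoRNA median between −2.87 (without *zmp-1* replicate 1) and −1.22. With at least 10 counts in every library the last was −0.45. The sign changed for *AOX1A* (−2.18 to 0.0104), *HSP18.2* (−3.21 to 0.34), AT3G44960 (−0.47 to 0.35) and *scpl48* (−0.23 to 0.0941) when 1 library was left out. The shallowest library, with 5815211 counts, limits what can be seen of genes below 0.53 TMM-scaled RPM.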

Other observations

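Some gene families matched by their annotation were not described above. Of 96 tested ribosomal protein genes, 74 had lower values in *zmp-1* (median log2 fold change −0.17). At an unadjusted p under 0.05, 8 were lower (8.33%, against 5.26% of all genes). Of 42 SAUR genes, which respond early to auxin, 28 had higher values (median 0.20), 5 at that p (11.9%, against 3.9% of all genes). The 240 pentatricopeptide repeat genes, whose products process organellar RNA, had a median of −0.01, with 5 higher and 3 lower at that p, and the 23 tubulin and 22 aquaporin genes had none past it. None of these genes passed the adjusted threshold.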
